A study of Homo sapiens with 4 samples.

Results

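The SMARC, ARID and CHD genes encode ATPases and subunits of chromatin remodelling complexes. Protein-coding genes of the hg38 annotation were taken as members when their symbol began with SMARC, with ARID and a digit, or with CHD and a single digit, and 32 of 20046 genes met this rule. They comprised 13 SMARC, 10 ARID and 9 CHD genes. N6-methyladenosine (m6A) was mapped by meRIP-seq in OE-19, an established cell line of adenocarcinoma of the esophagogastric junction (AEG), with no other treatment named. The labels gave 4 samples, 2 replicates of the anti-m6A immunoprecipitation (IP) and 2 of the input RNA, all from the same line. Peaks had been called in either IP replicate on its own, 24607 in replicate 1 and 19318 in replicate 2, and the input samples were not analysed here. The labels do not say whether the replicates came from separate cultures, and the lists hold no read numbers, so the depth is unknown.

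Remodellers use ATP to slide, evict or exchange nucleosomes, and so open or close DNA to transcription factors. SWI/SNF complexes join an ATPase of the SMARCA2 or SMARCA4 kind with SMARC core subunits and an ARID subunit, ISWI complexes use SMARCA1 or SMARCA5, and CHD proteins act alone or within complexes such as NuRD. m6A is laid down on nascent RNA at an adenosine within a short consensus of which GGAC is a frequent form, and it is known to lie mostly in long exons and near the stop codon.

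Windows around the summits of member peaks present in both replicates are shown first, because the strongest peaks and the peaks at related sites of paralogous genes carry the results below. Each runs 5' to 3' on the strand of the gene, from 50 nt before the outermost summit to 50 nt after the other, and lies in coding sequence. Capitals mark every GGAC. The window of CHD6 exon 37 (chr20:41405191-41405341, minus strand) held the highest fold enrichment of any member, with the summit of replicate 1 at base 101 and that of replicate 2 at base 51. CHD8 exon 38 (chr14:21385623-21385739, minus strand) and CHD1 exon 37 (chr5:98856384-98856518, minus strand) are last-exon sites just before the stop codon. ARID5A exon 7 (chr2:96551329-96551449, plus strand) is a strong site whose window holds no GGAC, although the 1421 nt of its shared peak hold 4.
CHD6 exon 37: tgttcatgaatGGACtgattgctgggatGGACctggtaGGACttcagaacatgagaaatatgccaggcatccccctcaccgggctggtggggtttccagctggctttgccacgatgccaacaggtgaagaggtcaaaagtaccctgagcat
CHD8 exon 38: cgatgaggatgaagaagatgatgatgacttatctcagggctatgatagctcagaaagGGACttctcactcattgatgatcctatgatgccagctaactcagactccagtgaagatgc
CHD1 exon 37: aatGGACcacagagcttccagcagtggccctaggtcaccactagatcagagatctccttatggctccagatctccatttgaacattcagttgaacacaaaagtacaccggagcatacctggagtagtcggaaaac
ARID5A exon 7: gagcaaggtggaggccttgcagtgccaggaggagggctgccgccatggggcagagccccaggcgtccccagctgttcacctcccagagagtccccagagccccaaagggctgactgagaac

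Next to these stand windows of paralogs, the last exons of ARID1A (chr1:26780200-26780393, plus strand) and ARID1B (chr6:157207248-157207502, plus strand), and exon 31 of CHD6 (chr20:41421823-41421946, minus strand) and CHD9 (chr16:53303866-53303967, plus strand). The ARID pair held GGAC at matching places and the CHD pair held none.
ARID1A exon 20: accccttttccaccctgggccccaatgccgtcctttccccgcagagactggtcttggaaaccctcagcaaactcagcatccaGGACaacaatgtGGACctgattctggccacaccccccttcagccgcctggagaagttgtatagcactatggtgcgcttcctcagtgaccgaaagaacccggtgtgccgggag
ARID1B exon 21: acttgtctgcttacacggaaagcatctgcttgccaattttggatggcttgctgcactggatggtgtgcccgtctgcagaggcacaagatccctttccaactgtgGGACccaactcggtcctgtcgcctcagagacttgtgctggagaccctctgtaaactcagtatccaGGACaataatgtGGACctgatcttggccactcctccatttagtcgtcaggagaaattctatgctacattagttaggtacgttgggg
CHD6 exon 31: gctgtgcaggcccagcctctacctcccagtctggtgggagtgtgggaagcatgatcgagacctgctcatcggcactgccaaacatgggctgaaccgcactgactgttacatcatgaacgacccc
CHD9 exon 31: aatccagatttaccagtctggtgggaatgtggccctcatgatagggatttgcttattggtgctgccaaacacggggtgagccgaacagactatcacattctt

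First, the members with an m6A peak were counted, taking a peak as exonic when its summit lay in an annotated exon of the gene. An exonic peak was present in 24 of the 32 members in replicate 1 (75%, 95% Wilson confidence interval 57.9% to 86.8%), where 42.4% of all protein-coding genes had one. In replicate 2 there were 16 members (50%, interval 33.6% to 66.4%), where 34.1% of all genes had one. The intervals here cover counting error only, and genes are not replicates. The same 16 members made up those with a peak in both replicates (all genes 33.4%), and 24 had a peak in either (all genes 43.1%), so no member had a peak in replicate 2 alone.

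Exonic length was taken over the merged exons of all annotated isoforms of a gene. By this measure the members are long genes, with a median of 10920 nt (all genes 4416 nt), and longer genes had peaks more often. The shares of all genes were therefore averaged over 20 bins of exonic length, weighted by the members in each bin. This gave 55.4% in replicate 1, 47.1% in replicate 2 and 45.9% in both, the last being 14.7 genes where 16 were counted. In both replicates together the members thus stood close to genes of their length. In replicate 1 they stood above them, and that difference was not tested, since the members had been chosen with results of these data known.

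The 3 families differed in these counts more than the members did as a whole. A peak in both replicates was found in 2 of 13 SMARC genes (15.4%, interval 4.33% to 42.2%), where length gave 44.8%, or 5.82 genes. It was found in 7 of 10 ARID genes (70.0%, interval 39.7% to 89.2%), where length gave 43.9%, or 4.39 genes. For the CHD genes the count was 7 of 9 (77.8%, interval 45.3% to 93.7%), where length gave 49.7%, or 4.48 genes. The SMARC and ARID genes had nearly the same median exonic length, 8146 and 8104 nt, and the CHD genes were longer at 14020 nt. Merged exons can far exceed the isoform with the longest coding sequence. The 2 lengths were 16526 and 1717 nt in SMARCB1, 18470 and 5150 nt in SMARCE1, and 45931 and 8616 nt in ARID1B. The families were therefore not matched on transcript length, and the numbers that length gave carry this limit. In replicate 1, whether or not replicate 2 had a peak, one was found in 8 of 13 SMARC, 8 of 10 ARID and 8 of 9 CHD genes. For these counts length gave 7.13, 5.35 and 5.23. The low SMARC count thus came from replicate 2. The difference between families was not tested, and the intervals do not test it, since genes of the same libraries are not replicates. A gene without a peak may carry no m6A or be little transcribed, and these cannot be told apart in a peak list.

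**Figure D1:**
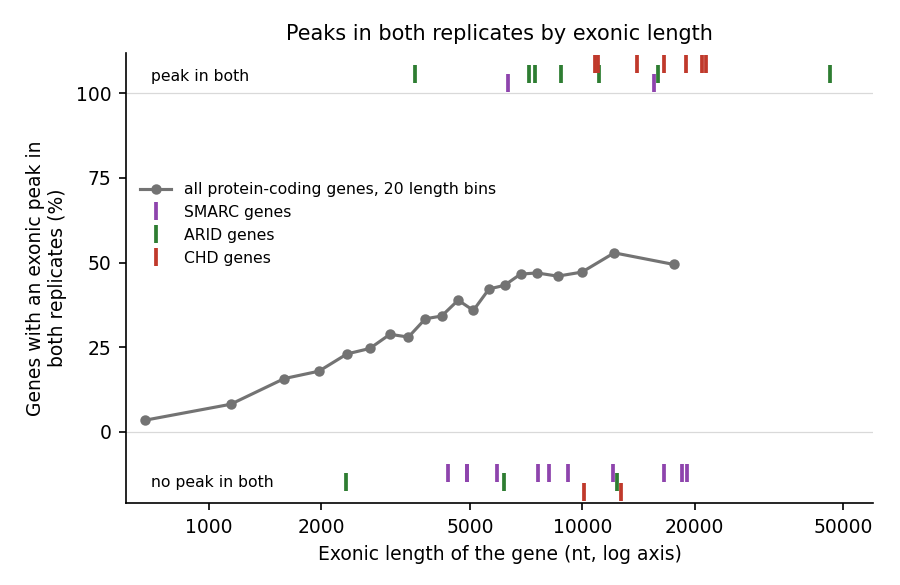
Percentage of protein-coding genes with an exonic peak in both replicates (vertical axis) against exonic length in nt (log axis), with a grey point for each of 20 length bins and a coloured tick for each member, above the curve when it had a peak in both replicates and below 0 when it had not. The curve rises from 3.49% to a plateau near 50%, and 11 of 13 SMARC, 3 of 10 ARID and 2 of 9 CHD ticks lie in the lower row.

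The SMARC genes were then followed by role. Of the SWI/SNF ATPases, SMARCA4 (BRG1) had 3 peaks in replicate 1 and 1 in replicate 2, and SMARCA2 (BRM) had none. The SMARCA4 peak present in both lay in the last exon, with summits 94 and 62 nt after the stop codon, and had a fold enrichment over the caller's background of 3.82 in replicate 1 and 2.02 in replicate 2. Fold enrichment is the peak caller's ratio at the summit, and the geometric mean of this pair, 2.77, was above only 3.99% of the 6613 genes with such a pair. Among the ISWI ATPases, SMARCA1 had no peak and SMARCA5 had a single weak peak in replicate 1, in the 5' UTR at a fold enrichment of 1.70. That peak also lay in an exon of the antisense gene SMARCA5-AS1, and the lists carry no strand.

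SMARCAD1, a helicase-like remodeller of heterochromatin and broken DNA ends, was the other SMARC gene with a peak in both lists. Its fold enrichment was 5.59 in replicate 1 and 4.49 in replicate 2, with summits 29 nt before and 34 nt after the stop codon. SMARCAL1, an annealing helicase that restarts stalled replication forks, had 2 peaks in exon 3 (869 nt) in replicate 1, of 7.12 and 6.18, and none in replicate 2. Those were the highest values of any SMARC gene in replicate 1, yet the other list held no exonic peak there.

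The core and accessory subunits of SWI/SNF had no exonic peak in replicate 2 in any of 7 genes, where length gave 3.14 genes. In replicate 1, 4 of the 7 had one, near the 3.81 that length gave. The scaffold subunits SMARCC1 (4.18) and SMARCC2 (highest 4.69, 3 peaks), SMARCD2 (4.25) and the HMG-box subunit SMARCE1 (3.78) had peaks of between 3.40 and 4.69. The core subunit SMARCB1 and the accessory subunits SMARCD1 and SMARCD3 had none in either list. The SMARCE1 peak also lay in exons of 2 other gene models. Hence all the peaks of this group were in one list, and all were below the median of 5.59 over the member peaks of that list.

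Among the ARID genes, ARID1A and ARID1B, the alternative DNA-binding subunits of canonical SWI/SNF and frequent targets of mutation in cancer, carried many peaks. ARID1A carried 6 exonic peaks (replicate 1) and 5 (replicate 2), and all 5 of the latter were paired with a peak of replicate 1. They lay in the 5' UTR (4.99 and 4.91), in the coding part of exon 1 (5.93 and 3.17), in exon 3 (3.21 and 2.04), in exon 18 (3.59 and 2.84) and in the last exon, exon 20 (5.75 and 5.83). The sites thus lay in exons 1, 3, 18 and 20, and the last exon gave nearly equal values in both lists.

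ARID1B had 11 peaks in replicate 1 and 4 in replicate 2. Its strongest pair (chr6:156777852-156778826 in replicate 1) lay in the coding part of exon 1, with 18.0 in replicate 1 and 7.25 in replicate 2. The pair in the last exon, exon 21, was more even, with 10.9 and 11.6. Exon 19, of 784 nt, had 10.5 and 5.52, and a further site in exon 1 had 4.48 and 2.57. The other 7 peaks of replicate 1 had no counterpart, with 5 of them in internal exons under 400 nt at 2.50 to 3.85. ARID2, the subunit that defines the PBAF form of SWI/SNF, had no exonic peak in either list, although its exon 15 of 2861 nt was the longest internal exon of any member.

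The other ARID proteins are transcriptional regulators outside SWI/SNF, and 5 of 7 had a peak in both lists where length gave 2.87. ARID5A, an RNA-binding protein that stabilises inflammatory mRNAs, had a single exonic peak, in the coding part of its last exon (chr2:96551134-96552611 in replicate 1), with 13.96 in replicate 1 and 11.9 in replicate 2. Its summits lay 932 and 912 nt before the stop codon, and the geometric mean was higher than that of 94.9% of genes with a pair. ARID5B, a partner of a histone demethylase, had 11.8 and 5.69 in its last exon, where the peak of replicate 1 was 2664 bp wide and overlapped 2 peaks of replicate 2. The ARID3A peak, from a transcription factor of AT-rich sites, was the only one among the 10 strongest with both summits on the 3' UTR of the reference transcript more than 200 nt past the stop codon, 309 and 350 nt after the stop codon, at 9.24 and 8.35.

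ARID4A and ARID4B, subunits of the SIN3 histone deacetylase complex, both carried peaks in exon 20, the long coding exon of each (1131 and 1209 nt). ARID4A had a pair of 6.68 and 3.43 and another of 5.24 and 3.07 there. ARID4B had 8.22 in replicate 1 and 5.22 in replicate 2. A stronger ARID4B pair, 14.7 and 4.37, lay at the end of the gene in an exon shared with RBM34 and off the reference transcript, so it cannot be assigned to either gene. ARID3B had peaks in replicate 1 alone (highest 5.59), and ARID3C, the shortest member at 2331 nt of exons, had none.

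**Figure D2:**
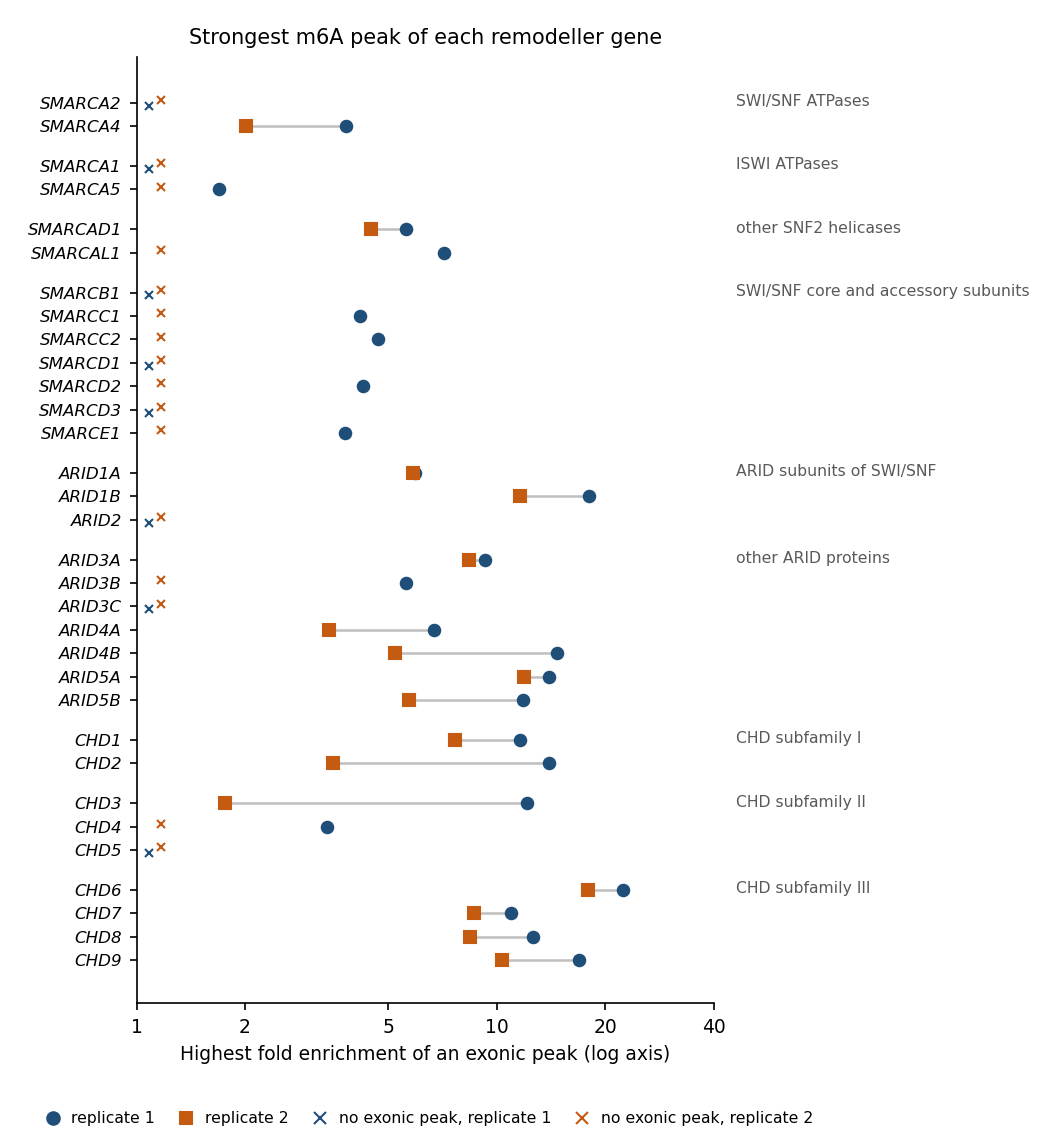
Highest fold enrichment of an exonic peak of each of the 32 members (log axis), in replicate 1 (circles) and replicate 2 (squares), grouped by role, with crosses at the left for a list without an exonic peak. Values in both lists reach 5 or more in ARID and CHD genes alone, with CHD6 at 22.4 and 17.9, and the core and accessory SWI/SNF subunits show crosses for replicate 2 throughout. The ARID4B value of replicate 1, 14.7, is from a peak in an exon shared with RBM34 and cannot be assigned to either gene. The next highest ARID4B peak of that list had 8.22.

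The CHD genes were described by subfamily. CHD1, which binds methylated histone H3 at active genes, had a last-exon pair just before the stop codon (52 and 86 nt) at 11.6 in replicate 1 and 7.65 in replicate 2, and a 5' UTR pair that was nearly equal at 6.47 and 6.77. CHD2, its close relative, had 13.95 in replicate 1 and 3.51 in replicate 2 in a single last-exon peak, a ratio of 3.98 and the largest of all 41 member pairs. The CHD2 summits were 320 bp apart, on both sides of the stop codon, so the peak was shared while its highest point was not.

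In subfamily II, the ATPases of the NuRD deacetylase complex, peaks were few. CHD3 had a pair at the stop codon with 4.27 in replicate 1 and 1.76 in replicate 2. Its highest value, 12.1 in exon 1, was in replicate 1 alone. CHD4 had 2 peaks in replicate 1 (3.39 and 3.28) and none in replicate 2, and the stronger of them also lay in an exon of another gene model. CHD5 had no exonic peak.

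All 4 genes of subfamily III, CHD6 to CHD9, had peaks in both lists, where length gave 1.98 genes. They held 22 of the 75 exonic member peaks of replicate 1 and 19 of the 43 of replicate 2. CHD6, a large remodeller linked to the oxidative stress response, had the strongest pair of any member in its last exon (chr20:41404580-41405440 in replicate 1), with 22.4 in replicate 1 and 17.9 in replicate 2. The geometric mean of 20.04 was higher than that of 99.7% of genes with a pair. The summits lay 646 and 696 nt before the stop codon, and the 3 GGAC of the window lay within 50 nt of the replicate 2 summit, with none within 50 nt of the stronger summit of replicate 1.

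CHD9, a coactivator of nuclear receptors, followed with 16.9 and 10.3 in its last exon (chr16:53324113-53325109 in replicate 1). There the summits were 351 bp apart, 46 and 397 nt before the stop codon. CHD8, a regulator of Wnt signalling and a gene of autism spectrum disorder, had 12.6 and 7.96 in its last exon, with summits 58 and 74 nt before the stop codon, and 10.3 and 8.39 in exon 2. CHD7, the gene of CHARGE syndrome, had 6 pairs, more than any other member, with 10.7 and 7.46 in its last exon and 10.96 and 6.44 in exon 31. The last exons of CHD6, CHD7 and CHD9 held 897, 918 and 876 nt of coding sequence, and all of their summits there were coding.

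Then the position of the peaks was examined on the reference transcript of each gene, the annotated isoform whose coding sequence (CDS) is longest. On it lay 69 of the 75 summits of replicate 1 and 42 of the 43 of replicate 2. The CDS, leaving out a stop codon window that reaches 200 nt to either side, held 71.0% of the member summits in replicate 1 and 73.8% in replicate 2, where it held 48.6% and 47.5% over all genes. The CDS also took 71.5% and 72.5% of the transcript length of the members with summits, each weighted by its summits, so the share in CDS was close to that of length. Within 200 nt of the stop codon lay 17.4% and 16.7% of member summits, from 5.47% and 5.05% of the length, where all genes had 24.5% and 27.1% from 11.3% and 10.7%. The 3' UTR beyond that window held 4.35% and 4.76%, from 19.9% and 19.2% of the length, and 18.0% and 19.7% over all genes. Member summits were thus more often near the stop codon than length alone gave, as were those of all genes. The members' share there was below that of all genes, as was their share in the 3' UTR. In both places the members also had less of their transcript length, so the lower share near the stop codon is not a lower concentration there.

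**Figure D3:**
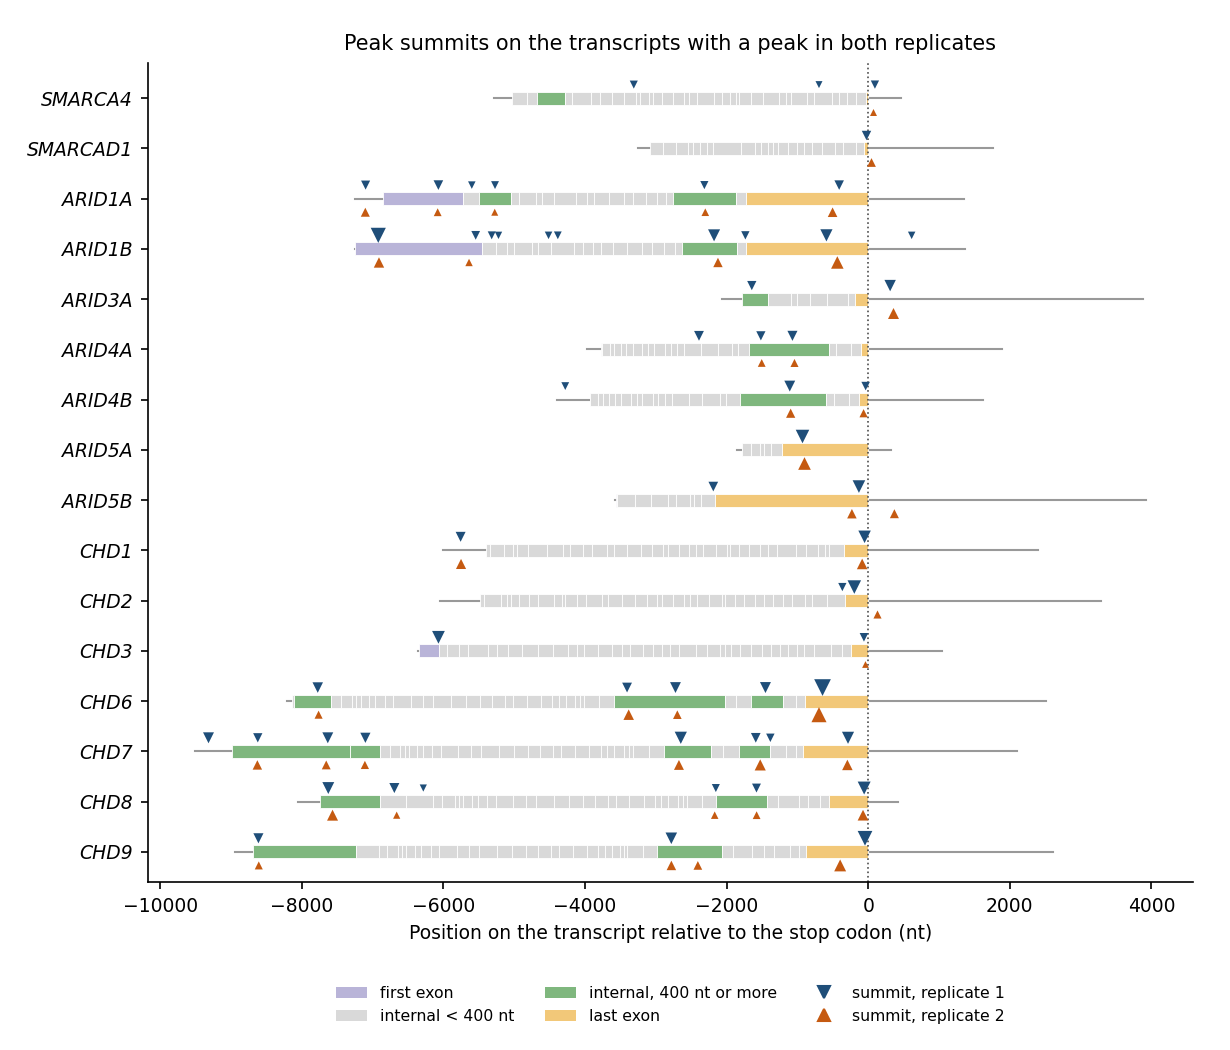
Transcripts of the 16 members with a peak in both replicates, aligned at the stop codon (0 on the axis, in nt), with coding exons as boxes coloured by class, untranslated parts as thin lines, and summits of replicate 1 above and of replicate 2 below, larger for a higher fold enrichment. Summits of both replicates sit on the long internal exons and the last exon, and the rows of short internal exons are mostly bare in replicate 2.

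The exon classes separated the sites most sharply. Internal exons of 400 nt or more held 34.8% of the member summits in replicate 1 and 45.2% in replicate 2, from 14.5% and 16.04% of the transcript length. Over all genes these exons held 18.3% and 23.8%, from 10.7% and 11.8% of the length. Internal exons under 400 nt held 24.6% of member summits in replicate 1 and 4.76% in replicate 2, from 46.5% and 45.2% of the length, and over all genes the share fell likewise, from 17.3% to 7.90%. Last exons held 27.5% and 38.1% of member summits, from 32.3% and 32.8% of the length. Over all genes they held 48.2% and 56.4%, from 50.3% and 51.9%, so the members also had less of their length in last exons. In replicate 1 the summits in short internal exons had a median fold enrichment of 3.46, and those in long internal and last exons had 6.72 and 9.24. The share in short internal exons was therefore the part that differed most between the lists, and its median enrichment was the lowest of the exon classes.

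Counted by exon, the 32 members have 23 long internal exons. Of these 20 held a summit in replicate 1 and 15 in both (65.2%), where 44.7% of the 4898 long internal exons of all genes did. Only 2 of 691 shorter internal exons did so (0.289%, all genes 0.427%), namely exons 3 and 31 of CHD8. Last exons held a summit in both lists in 15 of 32 members (46.9%, all genes 25.5%) and the first in 3 (9.38%, all genes 4.62%). These shares include genes without any peak, which were less frequent among the members. Among genes with a peak in both lists the gap in long internal exons was smaller, 83.3% (15 of 18) in members and 75.7% in all such genes. For last exons the shares were then 93.8% and 74.5%. CHD subfamily III accounted for 11 of the 23 long internal exons and for 10 of the 15 with a summit in both lists, the exception being exon 34 of CHD6. In CHD7 all 4 long internal exons (exons 2, 3, 31 and 34) were marked in both replicates, and in CHD8 (exons 2 and 32) and CHD9 (exons 2 and 31) both were.

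The long internal exons without any summit were exon 15 of ARID2 (2861 nt), exon 4 of SMARCA2 (435 nt) and exon 4 of SMARCA4 (405 nt). Those of ARID3A, ARID3B, SMARCAL1 and SMARCC2 had a summit in replicate 1 alone. So none of the 4 long internal exons of SMARC genes was marked in both lists, against 5 of 8 in ARID genes and 10 of 11 in CHD genes. Of 15 members with a long internal exon, 10 had a peak in both lists (66.7%, all such genes 56.7%), and of 17 without one, 6 had (35.3%, all such genes 27.9%). The 15 were also the longer genes, with a median exonic length of 14020 nt against 8146 nt (all such genes 6547 and 3973 nt). The split therefore does not separate long exons from gene length. As a description across the 32 genes, which share their libraries, the number of peaks followed the number of long internal exons with a Spearman rho of 0.70 in replicate 1 and 0.58 in replicate 2, the coding length with 0.64 and 0.66, and the exonic length with 0.50 and 0.43.

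**Figure D4:**
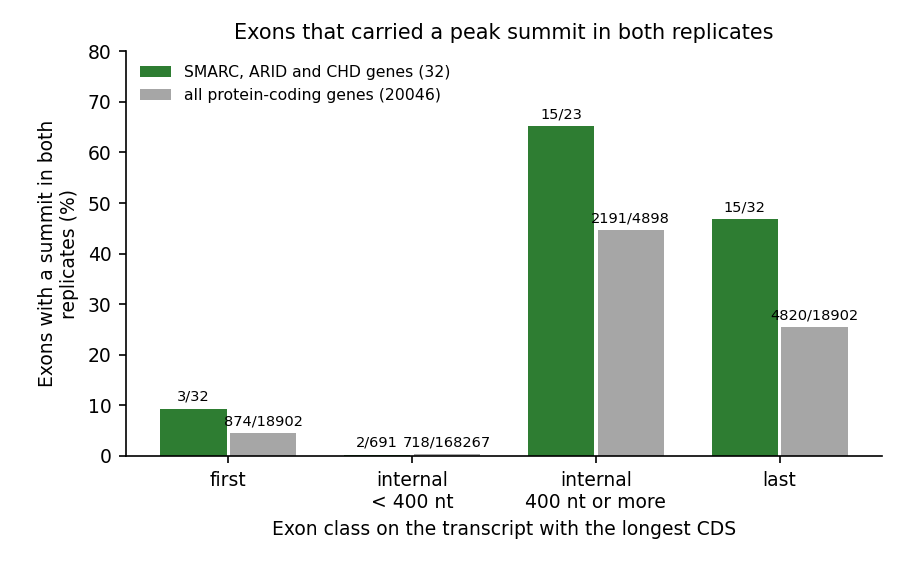
Percentage of exons with a summit in both replicates (bars from 0) by exon class, for the 32 members (green) and all 20046 protein-coding genes (grey), with the number of exons marked out of all exons of the class above each bar. Long internal exons reach 65.2% in the members and 44.7% in all genes, and short internal exons stay under 1% in both. Exons of genes without any peak are included.

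Next, the replicates were compared peak by peak. Of the 75 member peaks of replicate 1, 41 overlapped a peak of replicate 2 by at least 1 bp (54.7%, interval 43.5% to 65.4%, all genes 60.5%). In the other direction 42 of 43 did (97.7%, interval 87.9% to 99.6%, all genes 95.9%), the exception being a second site in exon 31 of CHD9 (4.41). Fold enrichment in replicate 1 had a median of 6.93 for shared and 3.77 for unshared peaks. The median over all exonic peaks of members was 5.59 in replicate 1 and 4.89 in replicate 2, where all genes had 5.18 and 4.70. Member peaks were therefore of about the usual enrichment in each list.

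Pairing each peak with its largest overlap gave 41 member pairs, in 35 of which (85.4%, all genes 80.8%) fold enrichment was higher in replicate 1. The 41 include the ARID4B pair in the exon shared with RBM34. The median log2 ratio of replicate 1 to replicate 2 was 0.66 in the members and 0.44 in all 11339 pairs. Across the 41 pairs, which come from 16 genes of the same libraries, Pearson's r of log2 fold enrichment was 0.74 (all pairs 0.71), given as a description. The paired summits lay a median of 22 bp apart (all pairs 26 bp), and 38 of 41 were within 100 bp, those of CHD2, CHD9 and the last exon of ARID1B being the exceptions. Over all pairs the median geometric mean was 6.22 in the members and 5.62 in all genes. The best pair of each gene had a median of 8.49 in the 16 members and 6.52 in the 6613 genes, and 11 of the 16 were above the latter. A best pair is the highest of several, and the members had more pairs per gene (41 in 16 genes, against 11339 in 6613), which by itself raises it. The 16 members had also passed the caller's threshold in both lists, so this is a description of them alone.

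**Figure D5:**
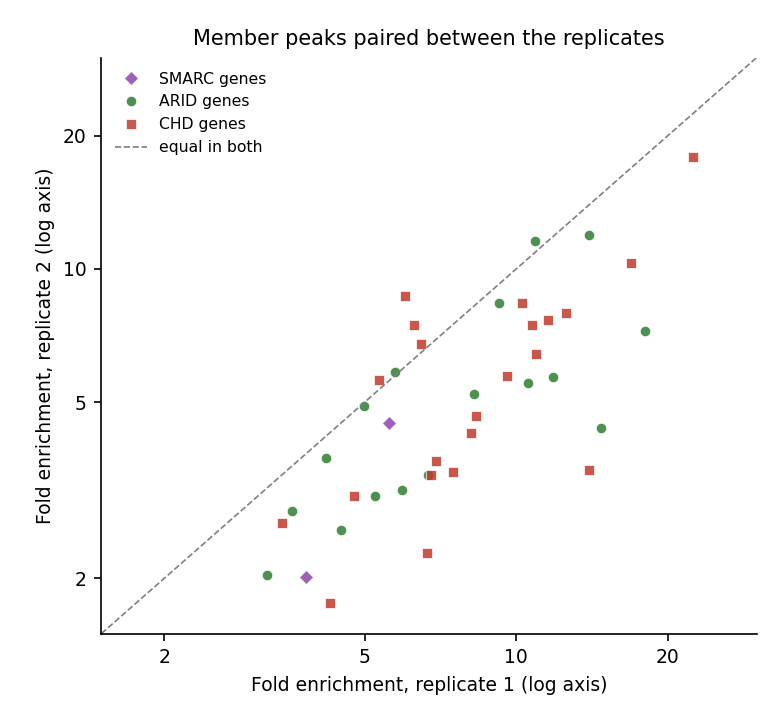
Fold enrichment in replicate 2 against replicate 1 (both log axes) for the 41 pairs of overlapping member peaks, by family, with a dashed line of equal values. Of the points, 35 lie below the line, and CHD6 is at the upper right with 22.4 and 17.9.

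After that, the sequence under the summits was searched for GGAC in the sense orientation, up to 50 nt away on either side. It was present at 50.7% of the member summits in replicate 1 and 46.5% in replicate 2, where 49.8% and 51.7% of all exonic summits had it. Its reverse complement GTCC, searched as a background, was present at 34.7% and 39.5% (all summits 31.5% and 29.5%). The share at member summits was thus close to that at other summits, and the margin over the reverse complement was smaller in the members. Over whole shared peaks rather than summits, GGAC occurred 5.33 times per kb on the 16 transcripts and 3.68 times per kb outside the shared peaks. It was denser inside in 14 of 16, with ARID5A and CHD3 as the exceptions. Among the 14, ARID5B (3.21 and 3.20 per kb) and ARID1B (4.56 and 4.30) were nearly equal. SMARCAD1, ARID3A and SMARCA4 held only 2 GGAC each inside. No such count was made over all genes. Pooled GC content was 55.1% inside and 46.2% outside. By gene, GC and GGAC density differed in the same direction in 10 of 16 and in opposite directions in 6, with GC lower inside in SMARCAD1, SMARCA4, ARID3A and ARID4A and higher inside in ARID5A and CHD3. The part of GC in the result was not tested.

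Finally, the windows around paired summits were aligned between paralogs, a comparison chosen after the values had been seen. Of 299 comparisons between summit windows of different members of a family, 4 reached a local alignment score of 30, counting 1 for a match and subtracting 1 for a mismatch, against a median score of 8. The last exons of ARID1A and ARID1B aligned over 141 columns with 111 identical bases (78.7%), including 2 GGAC at the same place in both. The summits of replicate 2 lay inside this stretch in both genes, 67 columns apart, and those of replicate 1 outside it. The other 3 were exon 31 of CHD7 with CHD9 (79.5% of 83 columns), of CHD9 with CHD6 (76.7% of 86 columns) and of CHD7 with CHD6 (73.9% of 92 columns). In each of these the summits of both replicates lay inside the aligned stretch. The exon 31 windows had been cut around the summits and were 127 nt in CHD7, 102 nt in CHD9 and 124 nt in CHD6. Stretches of these lengths without gaps could not leave the summits out, so their lying inside does not show a shared site. Between genes the summits were 44, 13 and 57 columns apart in replicate 1 and 17, 9 and 8 columns in replicate 2, distances that the windows also limited. The peaks of these 3 genes in exon 31 had fold enrichments of 10.96 and 6.44 in CHD7, 9.58 and 5.72 in CHD9, and 6.25 and 7.47 in CHD6. Reads from such stretches differ at many bases between paralogs, and how the aligner treated reads with several matches is not stated.

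To place the members within their pathway, 55 other remodeller genes were counted, covering further SWI/SNF and NuRD subunits, ISWI partners and the INO80 and SRCAP family. In both lists 28 of the 55 had an exonic peak (50.9%, interval 38.1% to 63.6%), where length gave 39.7%. By group these were 9 of 16 other SWI/SNF subunits, 4 of 11 NuRD subunits, 7 of 9 ISWI partners and 8 of 19 INO80 and SRCAP genes. Length gave 6.56, 4.88, 3.89 and 6.51 genes in the same order, so the NuRD count was below its number and the others above. These differences were not tested. The strongest pairs were in the SWI/SNF bromodomain subunit BRD7 (12.5 and 10.5), the INO80 subunit INO80D (12.5 and 7.62), the ISWI partner RSF1 (12.99 and 7.28), the ATPase EP400 (8.87 and 10.1) and the ISWI partner BAZ1A (10.7 and 8.24). Each of these stayed under the CHD6 pair. Markers of cell types were looked up as well. Of 6 epithelial marker genes only CDH1 had an exonic peak in both lists (4.47 and 3.86), where length gave 2.12 genes. Of 6 markers of other cell types only COL1A1 had a peak, in replicate 1 (3.11), where length gave 3.25 genes in that list. A peak list does not measure expression, so these counts do not check the identity of the cells.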

How the data were processed

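meRIP-seq peak lists of 2 m6A IP samples were analysed, and the 2 input samples entered no comparison. The study's methods describe DNase treatment and fragmentation of total RNA, NovaSeq paired-end reads, TopHat2 and MACS2 with default settings on hg38, whereas the labels describe UV-fixed, lysed cells, and the submitters' processing notes list fastp, HISAT2 and MACS2. Versions, and whether the input served as control, are not given in the sources used here. The authors called peaks per sample. They deposited a fold enrichment (a ratio over the caller's background), the −log10 p-value and −log10 q-value, a score that was not used, and the summit offset. Both lists end at a q-value of 0.05.

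Summits were placed on GENCODE version 44 (1-based coordinates), and a summit in exons of several protein-coding genes counted for each. Sequences were read from the hg38 reference. Shared peaks overlapped by at least 1 bp, and pairs were mutual largest overlaps. Alternatives were q of 0.01 and 1e-05, fold enrichment of 5, equally long lists, other overlap, window and exon rules, and each replicate left out. No test was run over the members. Members, role lists and rules were chosen with earlier results of these data known. Full values were given for the 10 members whose best pair had the highest geometric mean fold enrichment, and other remodeller genes were named, at most 5, by the same measure. ARID4B was among the 10 through the pair in the exon shared with RBM34. Scripts were tested on simulated data. Python 3.11.15, pandas 2.3.3, numpy 2.4.6 and pysam 0.24.0 were used. Intervals are 95% Wilson intervals.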

Additional observations from a re-analysis of the deposited data

Results flagged for a closer look

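Summits in introns of the members lie outside the exonic counts, and there were 8 in replicate 1 (in 5 genes) and 5 in replicate 2 (in 2 genes), with 4 shared in each list. CHD5, which had no exonic peak, had 2 shared intronic peaks (chr1:6128258-6128495 and chr1:6129321-6129700 in replicate 1), with fold enrichments of 4.65 and 6.79 in replicate 1 and 4.85 and 5.63 in replicate 2. CHD9 had the other shared ones, at 5.06 and 5.52 in replicate 1 and 6.09 and 6.60 in replicate 2, and another at 6.09 in replicate 2 alone. ARID1B, ARID5B and SMARCA4 had intronic peaks in replicate 1 alone, of 4.45 to 7.47. No input list was analysed, so no control level can be set beside these values.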

How the results depend on the processing

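Of 62 values under alternatives, 51 stayed within the limit set for each and 11 moved past it. The limit was a fixed ratio for counts, the Wilson interval for shared peaks and the standard deviation between the lists for averaged values. Leaving out a replicate cannot move an average past that deviation, so those values were within the limit in advance and show nothing. The limit for counts was wide, and 24 and 11 members against 16 still fell within it. When fold enrichment had to reach 5, the exonic peaks fell to 42 and 20, the shared percentage of replicate 2 was 100%, the median fold enrichment (mean of both lists, 5.24 in the main analysis) was 7.87, the share near the stop codon (17.0%) was 12.5% and the GGAC share (48.6%) was 57.4%. With q of 1e-05 or less the median fold enrichment was 5.94 and the share near the stop codon 16.4%. A stop codon window of 100 nt gave 12.2%, internal exons of 200 nt or more held 49.6% (400 nt, 40.01%), and a motif window of 100 nt gave GGAC at 70.2%. Members with a peak in both lists numbered 13 at q of 1e-05, 11 at fold enrichment of 5 and 16 with equal list sizes. Without replicate 1 the count was 16 and without replicate 2 it was 24, so replicate 2 sets it. Sharing has no value without a replicate. No paired analysis was possible because the input samples had no list analysed and no test was run. The lists hold no read numbers, so depth limits every count of genes without a peak in an unknown way.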
